A study of Mus musculus with 4 samples.

Results

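The 10 genes described here encode the 3 peroxisome proliferator-activated receptors (Ppara, Ppard and Pparg) and 7 proteins that bind, import, release, activate or burn fatty acids (Fabp4, Fabp5, Slc27a1, Slc27a4, Lpl, Cpt1a and Acsl1). They were chosen by name, from 21440 protein-coding genes with a known strand, and their chromatin accessibility was read from ATAC-seq peak lists. All libraries came from RAW264.7, a wild-type mouse macrophage cell line, and all cells received 25 ug/mL DIL-oxLDL, dye-labelled oxidized LDL, for 24 h. The control group (n = 2) received the solvent DMSO in addition, and the esculetin group (n = 2) received esculetin, a plant coumarin, at 40 ug/mL over the same 24 h. The libraries are named C1 and C2 (control replicates 1 and 2) and E1 and E2 (esculetin replicates 1 and 2). No source used here states that the 2 libraries of a group came from separate cultures, so the spread between them may be technical.

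PPARs are nuclear receptors that sense fatty acids and their derivatives. They bind DNA as heterodimers with retinoid X receptors (RXR) at direct repeats of a hexamer spaced by 1 base, and they switch on genes of lipid uptake, storage and oxidation. In macrophages loaded with oxLDL, PPARγ is known for raising Cd36, the scavenger receptor for oxidized lipoprotein. In ATAC-seq the Tn5 transposase cuts open DNA, so that a promoter in use is usually seen as a peak of reads at its transcription start site (TSS).

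A gene window ran from 10 kb before the 5′ end of a gene to its 3′ end, and a promoter peak had its summit within 1 kb of an annotated TSS. The lists held 19595 and 27833 peaks in C1 and C2, and 8677 and 12792 in E1 and E2. The genome-wide background coverage was 6.51 and 4.08 against 4.97 and 4.10. It rises with the number of mapped reads but also depends on peak calling settings that are not given. List length therefore differed between the groups while this background overlapped. Read numbers were not available, so depth itself was not compared. C2 stood apart: 51.1% of its 1000 strongest peaks had summits in annotated pseudogenes, against 0.1% to 1.6% in the other libraries, which lowers the percentile of the peaks ranked below them. Over the whole list the share was 6.83% in C2, and the part of these peaks in the percentiles of C2 was not tested. Of 15 macrophage marker genes, 9, 8, 1 and 6 had a promoter peak in C1 and C2 and E1 and E2. Spi1, which encodes the myeloid factor PU.1, was open in all 4 libraries, and it was the only macrophage marker open in E1. None of 8 adipocyte, 8 hepatocyte and 15 kidney epithelium markers had a promoter peak in any library, and of 10 fibroblast markers only Col3a1 had a peak, in C2.

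The promoter sequences below come from 5 open promoters of this gene group and from a closed promoter, which does not stand for the other closed ones. They are the 250 bases before a RefSeq start on GRCm38.p6, the assembly of mm10, all on the plus strand. Capitals mark motifs found by letter search on both strands. The motifs are the GC box (GGGCGG, bound by SP and KLF factors), the CCAAT box (CCAAT, bound by NF-Y), the C/EBP site (TTGCNNAA) and the TATA box (TATAAA). The first 5 sequences belong to promoters where a peak was called, at chr8:46470787-46471036 (Acsl1), chr17:28232504-28232753 (Ppard), chr8:71570344-71570593 (Slc27a1), chr2:29802384-29802633 (Slc27a4) and chr19:3323051-3323300 (Cpt1a). The last, at chr6:115421816-115422065, precedes the internal start of Pparg and was closed in all 4 libraries.
Acsl1: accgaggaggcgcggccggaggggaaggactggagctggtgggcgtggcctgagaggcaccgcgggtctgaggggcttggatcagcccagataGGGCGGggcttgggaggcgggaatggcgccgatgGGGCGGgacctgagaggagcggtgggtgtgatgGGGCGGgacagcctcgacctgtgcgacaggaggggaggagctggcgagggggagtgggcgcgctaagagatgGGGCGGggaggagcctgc
Ppard: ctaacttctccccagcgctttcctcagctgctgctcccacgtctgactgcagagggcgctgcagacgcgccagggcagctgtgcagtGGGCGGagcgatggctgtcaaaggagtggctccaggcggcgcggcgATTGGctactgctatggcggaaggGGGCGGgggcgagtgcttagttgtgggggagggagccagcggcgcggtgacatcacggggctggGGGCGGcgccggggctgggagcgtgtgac
Slc27a1: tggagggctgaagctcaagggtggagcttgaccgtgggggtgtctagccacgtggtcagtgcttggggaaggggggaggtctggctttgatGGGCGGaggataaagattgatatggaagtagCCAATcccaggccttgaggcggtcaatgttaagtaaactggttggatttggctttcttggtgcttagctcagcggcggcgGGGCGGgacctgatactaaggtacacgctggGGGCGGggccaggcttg
Slc27a4: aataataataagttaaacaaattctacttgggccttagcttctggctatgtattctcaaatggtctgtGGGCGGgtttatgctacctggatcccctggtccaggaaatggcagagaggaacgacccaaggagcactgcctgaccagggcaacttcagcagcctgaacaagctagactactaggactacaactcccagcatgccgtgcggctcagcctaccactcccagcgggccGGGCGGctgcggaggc
Cpt1a: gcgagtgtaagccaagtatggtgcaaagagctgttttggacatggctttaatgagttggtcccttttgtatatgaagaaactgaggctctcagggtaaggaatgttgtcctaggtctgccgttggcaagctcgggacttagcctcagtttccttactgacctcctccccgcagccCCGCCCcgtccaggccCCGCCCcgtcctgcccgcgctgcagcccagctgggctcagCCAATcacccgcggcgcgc
Pparg: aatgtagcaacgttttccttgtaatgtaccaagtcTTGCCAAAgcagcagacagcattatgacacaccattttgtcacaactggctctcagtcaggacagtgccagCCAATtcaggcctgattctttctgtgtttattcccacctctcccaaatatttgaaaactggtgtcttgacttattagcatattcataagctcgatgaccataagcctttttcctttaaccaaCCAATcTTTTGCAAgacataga

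None of the 5 open promoters printed had a TATA box, and 4 of them had more G and C than the median coding promoter. The share of G and C was 72.0% at Acsl1, 69.6% at Ppard, 59.6% at Cpt1a, 58.4% at Slc27a1 and 54.4% at Slc27a4, against a median of 55.6% over 21263 coding promoters. Acsl1 carried 4 GC boxes, Ppard and this Slc27a1 promoter 3 each, and Slc27a4 and Cpt1a 2 each. The internal Pparg promoter had 40.8% G and C, no GC box, 2 CCAAT boxes and 2 C/EBP sites, at -215 to -208 and at -16 to -9 from the start. Other closed promoters were not like it. G and C made up 82.4% and 63.6% at the Pparg starts at 115361144 and 115362349 and 76.4% at Ppara, with 1, 2 and 2 GC boxes. At the closed starts of Acsl1 (46490966) and Slc27a1 (71568871) the share was 48.4% and 66.4%, with no GC box. The share of G and C thus did not separate open from closed promoters here. In all, 7 of the 10 genes had an entry among these promoters, with 12 starts. Fabp4, Fabp5 and Lpl were not among them. A GC box lay in 9 of the 12 promoters and in 42.6% of all coding promoters, and a CCAAT box in 7 of 12 and in 35.4%. A C/EBP site lay in 1 of 12 against 9.09%, and a TATA box in 1 of 12 (another Pparg start) against 11.6%. No AP-1 site (TGACTCA or TGAGTCA, 4.06% of all promoters), no PU.1 site (AGAGGAAG, 3.6%) and no PPAR site (2 copies of AGGTCA spaced by 1 base with at most 2 mismatches, 2.8%, or exact, 0.0423%) was found in the 12 windows. A letter match, or none, in 250 bases says nothing about whether a factor was bound.

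CpG content followed openness across the genome, with exceptions among the members. The observed over expected CpG ratio had a median of 0.821 over 5493 promoters with a summit within 1 kb in all 4 libraries, 0.683 over 4281 promoters open in 1 to 3 libraries and 0.263 over 11489 promoters without a summit. Acsl1 (0.779) and Ppard (0.772) lay near the median of promoters open in 4 libraries, and Cpt1a (0.634) near that of the intermediate class. Slc27a1 (0.557) and Slc27a4 (0.433) lay below the lower quartile of their classes, 0.686 and 0.451. Ppara (0.763) and the upstream Pparg start at 115361144 (0.896) were closed at a CpG ratio above the upper quartile of closed promoters, 0.507. The other Pparg starts with an entry, at 0.505 and 0.204, did not lie above it.

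**Figure D1:**
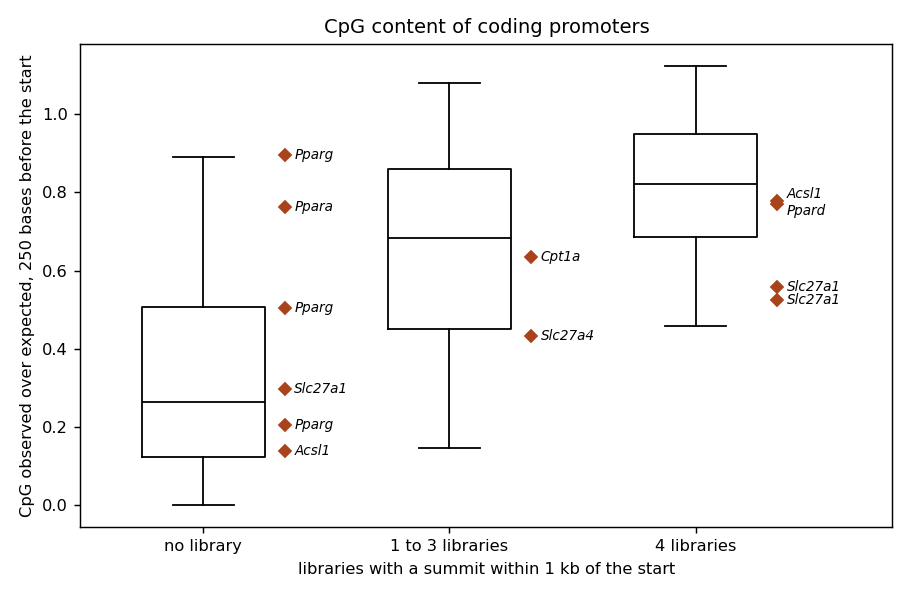
The vertical axis gives the observed over expected CpG ratio in the 250 bases before each start, for coding promoters grouped by the number of libraries with a summit within 1 kb. Boxes span the quartiles with the median as a line, whiskers the 5th to 95th percentiles, and diamonds are single starts of the named genes. The closed promoters of Ppara (0.763) and of 1 of the Pparg starts (0.896) stand above the box of closed promoters, and Slc27a1 (0.557) and Slc27a4 (0.433) below the boxes of their classes.

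To examine whether esculetin altered the accessibility of these promoters, the genes with a promoter peak were counted in each library. In both control libraries 7 of the 10 genes had one, against 3 in E1 and 6 in E2 (7 ± 0 and 4.5 ± 2.12, SD, n = 2 each). Over all coding genes the shares were 40.7% and 42.1% in C1 and C2, and 30.1% and 37.9% in E1 and E2. With 2 libraries a group, the smallest p of the two-sided exact permutation test is 0.33, so that no difference could pass 0.05. Acsl1, Slc27a1 and Ppard were open in all 4 libraries, which 26.9% of coding genes were. Slc27a4, Fabp5 and Cpt1a had promoter peaks in every library but E1, a pattern of 6.15% of coding genes. Lpl was called in both controls and neither esculetin library (3.75% of coding genes), and none of the 10 genes was called only in both esculetin libraries (0.420%). Ppara, Pparg and Fabp4 had no promoter peak anywhere, as did 52.8% of coding genes.

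The difference in counts moved with the length of the lists and with single libraries. When the 8677 strongest peaks of each list were used, so that all lists were as long as the shortest, 5 and 4 of the genes were open in C1 and C2, and 3 and 6 in E1 and E2. The means of the groups were then equal. Over all coding genes the shares were then 27.8% and 19.6% in C1 and C2 and 30.1% and 32.6% in E1 and E2, higher in both esculetin libraries. Without E1, the difference of means was -1 gene in place of -2.5, without E2 it was -4, and without C2 it remained -2.5. E1 had the shortest list and 1 of 15 macrophage markers open, against 6 in E2 and 9 and 8 in the controls, and the part of this in the counts was not tested.

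**Figure D2:**
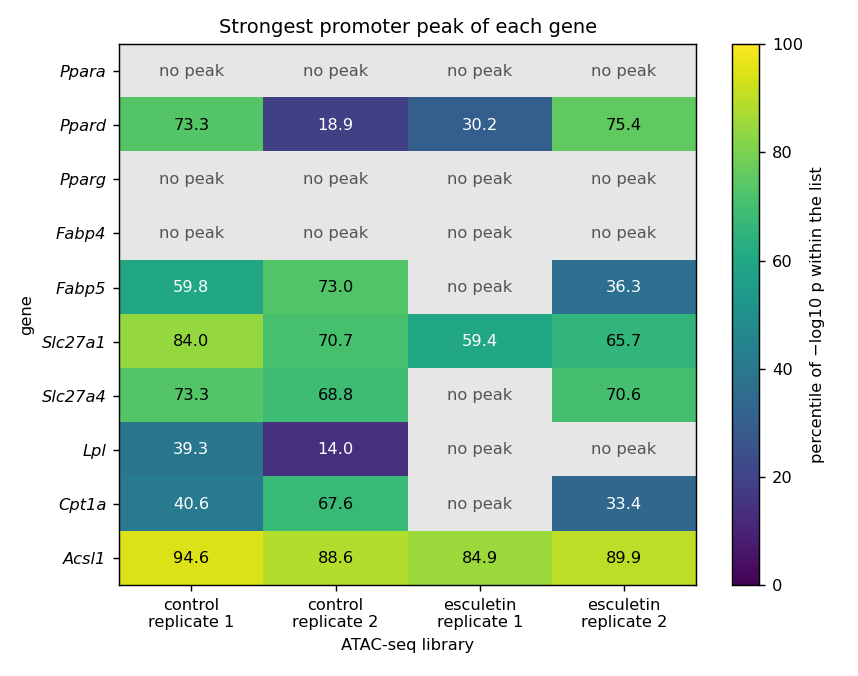
The colour and the printed number give the percentile of the −log10 p of the strongest promoter peak within the peak list of its library, for 10 genes (rows) in 4 ATAC-seq libraries (columns). Grey cells had no promoter peak. Acsl1 stands highest in every library, Ppara, Pparg and Fabp4 are empty, and esculetin replicate 1 holds 3 of the 10 genes.

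The strength of a promoter was given on 3 scales. The percentile ranks the −log10 p of a peak within its own list, so that 100 is the strongest peak, and it depends on the length and make-up of the list. The number of reads at the summit was solved from the deposited fold enrichment and p-value of each peak. That number, divided by the genome-wide background of the library and by the same ratio for the median promoter of 5770 genes open in all 4 libraries, gave a relative coverage in which the median promoter is 1. The ratio for that median promoter was 7.07 and 9.81 in C1 and C2, and 7.25 and 9.76 in E1 and E2. The intervals given for relative coverage are 95% Poisson intervals, which cover counting error only.

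Among the receptors, Ppard (chr17:28232754-28301469), the broadly expressed PPARδ, was the only one with an open promoter. Its promoter peak was at percentile 73.3 in C1, 18.9 in C2, 30.2 in E1 and 75.4 in E2. The groups overlapped, and each had 1 high and 1 low library. The summits lay 82 to 169 bases before the start and inside the sequence printed above. They held 39, 20, 28 and 41 reads in the same order, and relative coverage was 0.848 (0.603 to 1.16), 0.50 (0.305 to 0.772), 0.778 (0.517 to 1.12) and 1.03 (0.736 to 1.39). C2 was the lowest library on both scales. In that library 0.818% of the commonly open promoters lay below Ppard, against 22.1% to 50.4% in the other 3. The difference of mean percentiles, 6.71 (exact permutation p = 0.67), was smaller than the SDs of 38.4 and 32.0. It was -20.5 without C2, -15.9 without E2 and 33.9 without C1, so that its direction rested on single libraries. Mean relative coverage was 0.674 ± 0.246 in the controls and 0.901 ± 0.175 in the esculetin libraries (SD, n = 2 each), a ratio of 1.34 with p = 0.67 in the exact permutation test. This difference, 0.227, was 0.0536 without C2 and 0.401 without C1, and it was above 0 whichever library was left out.

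Ppard also had the most peaks outside its promoter, and these were seen mainly in the controls. C1 and C2 had 6 peaks each in its window, and both esculetin libraries had 2. A region 8.5 kb before the start, chr17:28223785-28224440, was at percentiles 70.9 and 79.2 in the controls and 38.5 in E2, and it was not called in E1. A region 27.4 kb into the gene, chr17:28259863-28260435, was at 56.3 and 44.3 in the controls and 18.0 in E1, and it was not called in E2. Regions at 15.0, 24.4 and 61.9 kb were called in both controls and in neither esculetin library. The strongest of these, chr17:28294447-28294862, was at percentiles 70.05 and 66.9, with 38 and 31 reads at its summits and a relative coverage of 0.826 and 0.775. A call at the genome-wide background needed 15 reads in E1 and 13 in E2, a relative coverage of 0.417 and 0.325. The weakest, at 24.4 kb, was at percentiles 14.7 and 13.9, with a relative coverage of 0.609 and 0.55.

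Pparg (chr6:115360879-115490404), which encodes the adipogenic PPARγ, had 4 annotated starts and no summit within 1 kb of any of them. It had peaks only deep in the gene, and only in control libraries. At 120 kb from the 5′ end, chr6:115480347-115481046 was called in both controls, at percentiles 54.5 and 45.2 with 33 and 25 reads at the summit. At 102 kb, chr6:115463022-115463370 was called in C2 alone, at percentile 76.1 with 35 reads and a relative coverage of 0.875 (0.609 to 1.22). These regions are given by distance alone, since exons and introns of mm10 were not annotated here. Ppara (chr15:85734910-85806851), the receptor that drives fatty acid oxidation in liver, had no peak in its window in any library. That was also so for Fabp4 and for 36.0% of coding genes.

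A closed promoter is a missing call, which has a limit. At the genome-wide background a summit needed 17 and 13 reads in C1 and C2 and 15 and 13 in E1 and E2, that is 0.37, 0.325, 0.417 and 0.325 of the median promoter. Accessibility of the Ppara, Pparg and Fabp4 promoters below these levels was not detectable in the lists. E1 had the highest limit relative to its own median promoter.

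The fatty acid binding proteins carry fatty acids inside the cell. The 2 members differed, although their genes lie on the same chromosome. Fabp4 (chr3:10204342-10208616, minus strand), the adipocyte and macrophage form and a PPARγ target, had no peak within its window. Fabp5 (chr3:10012585-10016610), the epidermal form that macrophages also express, had a promoter peak 32 to 65 bases before its start at percentile 59.8 in C1, 73.04 in C2 and 36.3 in E2. E1 had none, and E2 was below both controls. The summits held 37, 35 and 22 reads, a relative coverage of 0.804 (0.566 to 1.11), 0.875 (0.609 to 1.22) and 0.55 (0.345 to 0.833). The interval of E2 overlapped those of both controls. At the highest local background seen at this promoter, a call in E1 needed 18 reads, or 0.50 of its median promoter, which is below the intervals of both controls and inside that of E2. C1 alone had another peak 533 bases past the start, at percentile 10.8.

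The fatty acid transport proteins Slc27a1 (FATP1) and Slc27a4 (FATP4) couple uptake of long-chain fatty acids to their activation. Slc27a1 (chr8:71568728-71587307) was open in all 4 libraries, at an internal start. Its summits lay 127 and 156 bases before the start at 71570594 in C1 and C2 and 493 and 155 bases before it in E1 and E2. The peaks were 876 to 1096 bp wide and no summit lay within 1 kb of the 5′ end of the gene. The percentiles were 84.0 and 70.7 in C1 and C2, and 59.4 and 65.7 in E1 and E2 (77.3 ± 9.39 and 62.6 ± 4.48, SD, n = 2 each). Both esculetin libraries were lower than both controls, with a difference of -14.8 points (exact permutation p = 0.33). It was -8.13 without C1 and -21.4 without C2. Of the 5770 genes open in all 4 libraries, 30.0% showed this order and 14.5% the opposite order, and the median difference over them was -4.47 points, so the order by itself is common.

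The direction at Slc27a1 depended on the scale. The summits held 49, 40, 44 and 41 reads, and relative coverage was 1.07 (0.788 to 1.41) and 1.0 (0.714 to 1.36) in C1 and C2, and 1.22 (0.888 to 1.64) and 1.03 (0.736 to 1.39) in E1 and E2. Means of 1.03 ± 0.046 for the controls and 1.12 ± 0.14 for esculetin (SD, n = 2 each) gave p = 0.67 in the exact permutation test, so that the esculetin mean was the higher on this scale, with overlapping groups. That direction rested on E1, since the difference of 0.091 was -0.0076 without it. Ranked among the commonly open promoters alone, Slc27a1 was at percentile 57.7 and 42.2 in the controls and 44.4 and 32.5 in the esculetin libraries, which also overlapped. Among the 8677 strongest peaks of each list, the difference in percentile was 19.5 in the other direction. That value rested on C2, where Slc27a1 was at percentile 6.09 of the shortened list, against 49.5 to 63.9 in the other 3 libraries, and it was -9.42 without C2. The local background at the summits was 1.32 and 1.59 times the genome-wide background in C1 and C2, and 2.02 and 1.84 times in E1 and E2. This background enters the p-value and hence the percentile, and its part in the percentile was not tested.

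Slc27a4 (chr2:29802634-29817522) had a promoter peak within 38 bases of its start in 3 libraries. The percentile was 73.3 in C1, 68.8 in C2 and 70.6 in E2, and no peak was called in E1. The 3 libraries were close, with 39, 33 and 38 reads at the summit and a relative coverage of 0.848 (0.603 to 1.16), 0.825 (0.568 to 1.16) and 0.95 (0.672 to 1.3). E1 needed 19 reads for a call at the highest local background seen here, or 0.528 of its median promoter, which is below all 3 intervals. The 2 esculetin libraries thus differed in whether this promoter was called, and E2 lay with the controls.

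Outside their promoters, the transporters differed. Slc27a4 had no other peak in its window in any library. Slc27a1 had a region 11.7 kb into the gene, chr8:71580257-71580554, that was called in both controls only, at percentiles 28.1 and 11.4, and weaker single calls in the controls at 10.5 and 12.1 kb. A region about 9.5 kb before the gene, at percentiles 4.01 and 8.36 in the controls only, had its summits 34 and 36 bases from the 5′ end of Tmem221 and belongs to that promoter by position.

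Lipoprotein lipase, encoded by Lpl (chr8:68880555-68906932), releases fatty acids from lipoprotein triglyceride and is secreted by macrophages. It was the only one of the 10 genes whose promoter was called in both controls and in neither esculetin library. The summits lay 49 and 130 bases past the start in C1 and C2, at percentiles 39.3 and 14.0. They held 29 and 19 reads, a relative coverage of 0.630 (0.422 to 0.905) and 0.475 (0.286 to 0.742), so that this was the weakest promoter among the 7 called in the controls. At the highest local background seen at Lpl, a call needed 0.444 of the median promoter in E1 and 0.35 in E2. The first limit lies inside the intervals of both controls, and the second inside that of C2 and below that of C1. The coverage of C2, 0.475, was just above the limit in E1 and further above that in E2. The coverage of C1, 0.630, was above both limits. The part of these limits in the missing calls was not tested. C1 had another peak at 654 bases, at percentile 10.3.

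Acsl1 (chr8:46471037-46536051), which encodes the long-chain acyl-CoA synthetase that activates fatty acids in macrophages, had the strongest promoter of the group in every library. Its percentile was 94.6 in C1, 88.6 in C2, 84.9 in E1 and 89.9 in E2. The groups overlapped, with a difference of -4.14 points (exact permutation p = 0.67) beside a median of -4.47 over all genes open in 4 libraries. The difference was -1.12 without C1, -1.65 without E1, -7.17 without C2 and -6.64 without E2, and it turned to 9.48 among the 8677 strongest peaks of each list. The turn rested on C2, since the difference among these peaks was -2.79 without it. The summits held 62, 56, 53 and 58 reads and lay 57 to 107 bases before the start, in the stretch of the printed sequence that holds the GC box at -90 to -85. Relative coverage was 1.35 (1.03 to 1.73) and 1.4 (1.06 to 1.82) in C1 and C2, and 1.47 (1.10 to 1.93) and 1.45 (1.10 to 1.87) in E1 and E2. On this scale both esculetin libraries lay above both controls, with means of 1.46 ± 0.016 against 1.37 ± 0.037 (SD, n = 2 each) and p = 0.33 in the exact permutation test. Ranked by −log10 p among the commonly open promoters, the order was the opposite, at percentiles 85.2 and 82.6 in C1 and C2 and 80.3 and 78.9 in E1 and E2, so the direction at Acsl1 depended on the scale too. The ratio of mean coverages was 1.06, the counting intervals overlapped throughout, and 29.5% of 5742 genes showed this order of coverage while 24.0% showed the opposite one. Between 82.7% and 86.9% of the commonly open promoters had a lower coverage than Acsl1 in each library. The summits also lay 70 to 120 bases from the 5′ end of Gm31050, an uncharacterized gene, so that both genes share this open region.

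Cpt1a (chr19:3322326-3385735), which encodes the carnitine palmitoyltransferase that admits fatty acids into mitochondria, had promoter peaks at different places in the controls and in E2, the only esculetin library with a call. In C1 and C2 the strongest summit lay 544 and 532 bases before the 5′ end of the gene, at percentiles 40.6 and 67.6. C2 had a further summit 117 bases past that end, at percentile 48.4. In E2 the summit lay 950 bases past the 5′ end and 25 bases before the second start at 3323301, at percentile 33.4, and neither control had a peak there. The peak of E2, chr19:3323183-3323515, covers the last part of the printed sequence with its 2 GC boxes and CCAAT box, and did not overlap the control region chr19:3321620-3321913. Relative coverage was 0.826 (0.585 to 1.13) and 1.05 (0.757 to 1.42) in the controls and 0.675 (0.445 to 0.982) in E2. E1 had no peak in the window and needed 0.639 of its median promoter for a call at the highest local background, which lies inside the intervals of C1 and E2 and below that of C2. A region 54.9 kb into the gene was called in both controls only, at percentiles 21.3 and 29.7, and its summits lay 58 to 360 bases from the 5′ end of Gm36532.

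**Figure D3:**
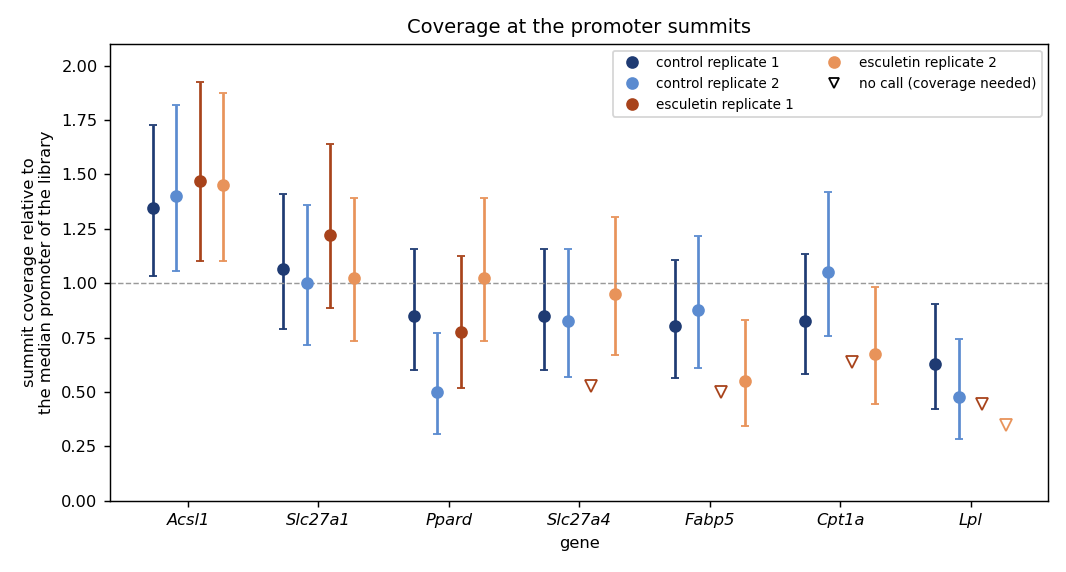
Points give summit coverage of the strongest promoter peak relative to the median commonly open promoter of the same library (dashed line, 1) for 7 genes in 4 libraries, with 95% Poisson intervals as bars. Open triangles mark libraries without a call, at the relative coverage a call would have needed at the highest local background seen there. Acsl1 lies at 1.35 to 1.47 in all libraries, and Lpl is the lowest of the control promoters at 0.630 and 0.475.

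In the order of the promoters by relative coverage, the intervals of neighbours overlapped in every library. Acsl1 came first in all 4 libraries and Lpl last in both controls, in C2 just below Ppard (0.475 and 0.50). Between them, Slc27a1, Cpt1a, Slc27a4, Ppard and Fabp5 overlapped in their intervals in C1, from 1.07 to 0.804. In E2 Slc27a1 and Ppard were equal at 1.03, followed by Slc27a4 at 0.95, Cpt1a at 0.675 and Fabp5 at 0.55.

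Accessible regions across the whole windows were counted next. C1 and C2 had 20 peaks each in the windows of the 10 genes, and E1 and E2 had 4 and 8 (20 ± 0 and 6 ± 2.83, SD, n = 2 each). Per 10000 peaks of a list, these were 10.2 and 7.19 in the controls and 4.61 and 6.25 in the esculetin libraries (8.70 ± 2.14 and 5.43 ± 1.16). The groups did not overlap in either count, and without C2 the difference in number remained -14. The difference per 10000 peaks, -3.26, depended more on the settings. It was -1.75 without C1 and -4.77 without C2, -1.56 for peaks with a −log10 q of at least 5, and -0.603 when the windows were extended to 10 kb past the 3′ end of each gene. Promoter peaks numbered 9 and 8 in the controls against 3 and 6, and other peaks 11 and 12 against 1 and 2. With the 8677 strongest peaks of each list, the windows held 8 and 6 peaks in the controls and 4 and 7 in the esculetin libraries, which overlapped.

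Overlapping peaks of the 4 libraries formed 25 regions in the windows. Of these, 9 were called in both controls and in neither esculetin library, and none in both esculetin libraries and in neither control. Over all 36037 regions of the genome the shares of these classes were 13.9% and 0.832%. By window, the 9 regions were 3 at Ppard, 2 at Slc27a1, 2 at Cpt1a and 1 each at Pparg and Lpl. The 3 regions called in all 4 libraries (17.2% of regions genome-wide) were the promoters of Ppard, Slc27a1 and Acsl1. Of 14 regions outside the promoters of these genes, none was called in all 4 libraries and 7 were called in both controls only. Among 25546 regions of the genome with no summit within 1 kb of a coding gene start, the shares were 4.65% and 15.8%. The 7 include the region at the start of Tmem221 and the one near Gm36532, which lie at starts of other genes. Genome-wide, 4048 of the 4993 regions called in both controls only had no summit within 1 kb of a coding gene start, so that most such regions lay outside promoters there too. No region of the 9 was among the 8677 strongest peaks of both controls. E2 alone had 2 regions, both at Cpt1a, the promoter peak described above and a weak region 3.8 kb before the gene at percentile 24.4.

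**Figure D4:**
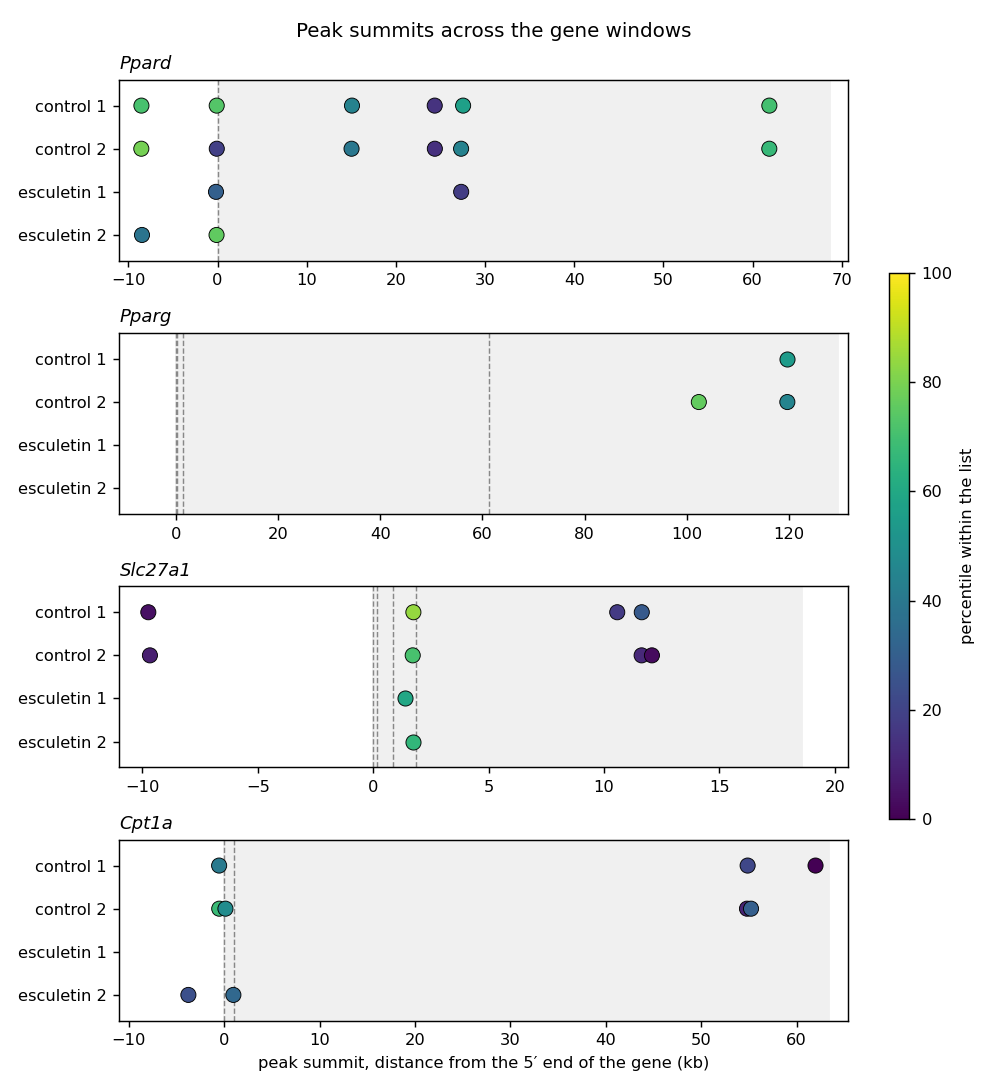
Each point is a peak summit, placed by its distance from the 5′ end of the gene in kb (horizontal axis) in each library (rows), for Ppard, Pparg, Slc27a1 and Cpt1a, and coloured by its percentile within the list. Grey areas are gene bodies and dashed lines annotated starts. Summits away from the starts are mostly in the control rows, as the 4 summits of each control between 15 and 62 kb of Ppard against 1 in esculetin replicate 1, and Pparg has summits in the control rows alone.

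Other genes of PPAR signalling and fatty acid metabolism were read from 5 lists, by counts of genes with a promoter peak. Of 14 PPAR partners and cofactors, 7, 9, 6 and 8 were open in C1 and C2 and E1 and E2, beside shares of 40.7%, 42.1%, 30.1% and 37.9% over all coding genes. Rxrb, which encodes the DNA-binding partner RXRβ, was the only gene of the 5 lists called in both esculetin libraries and neither control, as 0.420% of coding genes were, at percentiles 73.1 and 57.3 with a relative coverage of 1.42 and 1.05. Rxra and Rxrg had no promoter peak. Of 15 known PPAR target genes, 5, 5, 2 and 3 were open, and 9, Cd36 among them, had no promoter peak in any library, as had 52.8% of coding genes. Angptl4, a secreted inhibitor of lipoprotein lipase, was called in both controls only, at percentiles 11.2 and 17.9 with a relative coverage of 0.50 in both, and so was Nr1h3 (LXRα, the receptor for oxysterols), at 74.9 and 26.6 with 0.935 and 0.55.

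The lists nearest to the transporters and to Cpt1a differed in how many genes were open. Of 17 other genes of fatty acid uptake, binding and activation, 5, 4, 4 and 4 were open and 12 had no promoter peak, as had 52.8% of coding genes. Acsl3, Acsl4, Dbi and Lmf1 were open in all 4 libraries, as 26.9% of coding genes were, with a median difference in relative coverage of -0.041. Of 18 genes of mitochondrial fatty acid oxidation, 14, 14, 8 and 14 were open, beside the shares over all coding genes given above. The pattern of Cpt1a, a call in all libraries but E1, was seen at 6 of the 18, against 6.15% of coding genes, and E1 had the fewest open promoters genome-wide. Hadha and Hadhb, counted among these 6, start from the same open region and have the same values. Echs1, the enoyl-CoA hydratase of β-oxidation, was at percentiles 87.6 and 91.2 in the controls and 47.7 and 55.4 in the esculetin libraries, and its relative coverage was 1.15 and 1.4 against 0.833 and 0.675. The median difference in relative coverage over the 7 genes of this list open in all 4 libraries was 0.032, against 0.026 over 5742 coding genes. None of these differences was tested. With groups of this size the exact permutation test could give no p below 0.33.

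Of 17 genes of fatty acid and triglyceride synthesis and lipolysis, 9, 14, 9 and 11 were open, beside 40.7%, 42.1%, 30.1% and 37.9% of all coding genes. In all 4 libraries 8 of them were open, beside 26.9% of coding genes. In 4 of these 8 (Acly, Agpat2, Lpin2 and Dgat1) the esculetin percentiles were below both controls and in the other 4 (Fasn, Dgat2, Lipe and Abhd5) above both, orders that 30.0% and 14.5% of the 5770 genes open in all 4 libraries showed. In relative coverage the groups overlapped at Acly and Dgat1. The widest gap among the lower genes was at Lpin2, a phosphatidate phosphatase, at percentiles 87.9 and 88.5 in the controls and 39.6 and 11.9 in the esculetin libraries, with a relative coverage of 1.13 and 1.25 against 0.833 and 0.45. Agpat2, the preceding acyltransferase of triglyceride synthesis, was at 64.3 and 58.9 against 27.7 and 12.1. Its relative coverage was 0.783 and 0.725 against 0.722 and 0.50, so that C2 and E1 were nearly equal on this scale. Dgat2, which makes triglyceride from diacylglycerol, was at 24.5 and 27.0 against 53.1 and 67.4, with a relative coverage of 0.609 and 0.575 against 0.861 and 0.925. Abhd5, the coactivator of adipose triglyceride lipase, was at 56.7 and 47.9 against 82.6 and 78.0. The median difference in relative coverage over the 8 genes, which went both ways, was 0.197, against 0.026 over 5742 coding genes.

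**Figure D5:**
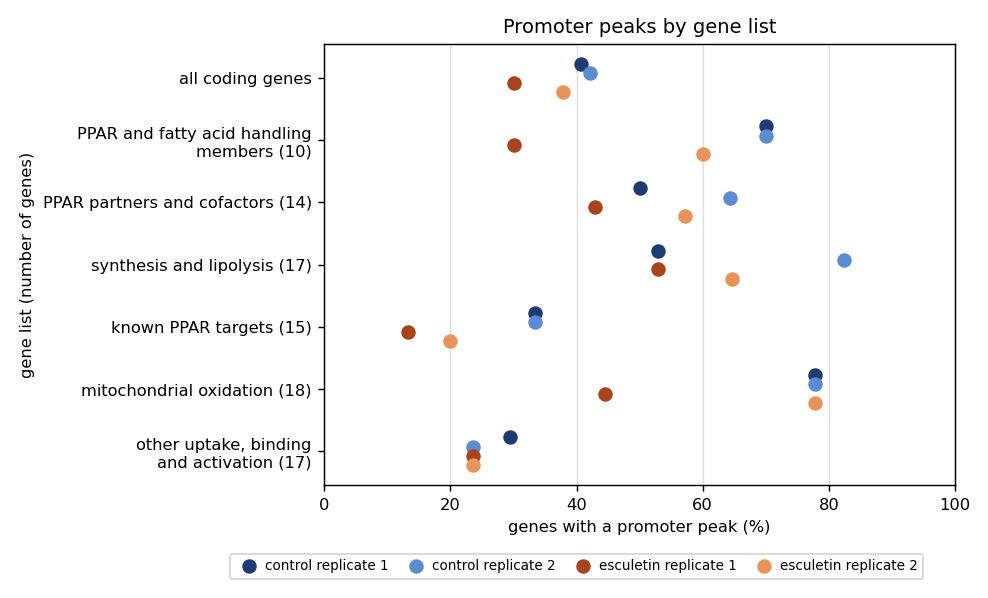
The horizontal axis gives the percentage of genes with a promoter peak, for all coding genes, the 10 genes described here and 5 related lists (rows, with the number of genes), and each point is 1 library. Esculetin replicate 1 lies lowest or level with the lowest in every row, and the 10 genes stand at 7, 7, 3 and 6 open promoters.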

How the data were processed

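ATAC-seq libraries were grouped by the treatment in the sample labels. The authors trimmed reads (Trim-Galore), mapped them to mm10 (Bowtie2), took out duplicate and multiply mapped ones (Sambamba) and called peaks per library (MACS2). MACS2 settings and any Tn5 shift of reads are not given in the sources used here. The deposited lists give a score, the fold enrichment as a ratio to local background, and the −log10 p-value and −log10 q-value of each summit (q limit 0.05). They hold no read counts, so no count model was run. Summit coverage and background were solved from fold and p, taking p as a Poisson tail. Peak names within the lists labelled esculetin replicates 1 and 2 carry the numbers 2 and 3, and the labels were followed. Genes were RefSeq genes of GRCm38.p6 with their annotated starts (strand from the RefSeq promoter table for 7 members and from GENCODE vM39, without its coordinates, for 3). Groups are given as mean ± SD, with two-sided exact permutation tests for the members open in all 4 libraries. All 10 members were reported. Related genes were named where their promoter was called in both libraries of 1 group only or their percentiles differed by a gap of at least 20 points between groups. Any other related gene was named after its values were seen. The members and lists were chosen with earlier results of these data known. The scripts were tested on simulated data. Alternatives covered thresholds, list length, promoter and window limits, ranking, and leaving out each library. Versions were matplotlib 3.10.9, SciPy 1.17.1, NumPy 2.4.6 and pandas 2.3.3 under Python 3.11.15.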

Additional observations from a re-analysis of the deposited data

How the results depend on the processing

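The count of members with a promoter peak differed by -2.5 between the groups, by 0 with equal numbers of top peaks and by -4 to -1 when each library was left out. The count of peaks in the windows differed by -14, by -9.5 with a stricter threshold (−log10 q of at least 5), by -1.5 with equal numbers of top peaks and by -16 to -12 when each library was left out. Per 10000 peaks of the list, the difference of -3.26 was -0.603 with windows to 10 kb past the 3′ end, -1.56 with the stricter threshold and -4.77 to -1.75 when each library was left out. Regions called in both controls only numbered 9, and 0 with equal numbers of top peaks. Regions called in both esculetin libraries only numbered 0, and 0 to 2 when each library was left out. Members whose percentiles did not overlap numbered 1, and 2 to 4 when each library was left out, a weaker criterion since fewer libraries have to be ordered. The percentile difference of Slc27a1, -14.8, was 19.5 with equal numbers of top peaks, and -9.42 when control replicate 2 was also left out. For Acsl1, -4.14 turned to 9.48 under the same limit, and to -2.79 without control replicate 2. The fits with both changes were added after seeing the data. For Ppard it ranged from -20.5 to 33.9 when each library was left out. With a replicate block, the paired difference in members with a promoter peak was -2.5, as without it. The differences between replicates 1 and 2 correlated with r = 0.0010 between the groups over 5770 genes, and the replicate numbers were not taken as pairs. Ppard had no value with equal numbers of top peaks, since its peak in control replicate 2 was not among them, and Slc27a1 had none with the 5′ end as the only start. The lists record no coverage at uncalled sites, so that depth limits every absent call.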
